A study of Rattus norvegicus with 24 samples.

Results

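Arginase and polyamine synthesis genes were followed in single dorsal root ganglion (DRG) neurons of the rat. The members are 7 genes, Arg1, Odc1, Srm, Sms, Sat1, Amd1 and Oaz1, chosen by name, and all 7 were among the 32881 genes shared by the files. Counts were read in every neuron with at least 500 genes, at least 1000 unique molecular identifiers (UMIs, which mark single RNA molecules) and a mitochondrial share under 5%. These limits left 1433 of 1464 neurons. All rats were male and of the Sprague-Dawley strain, of no stated age. In spared nerve crush (SNC) the tibial and common peroneal branches of the left sciatic nerve were crushed and the sural branch was left intact. In the sham operation the nerve was exposed and not crushed. For the dye labeling, the study describes injections by glass micropipette into the branches of this nerve, in sham and SNC rats alike. The nerves of labelled sham rats were thus not untouched. Dye-labeled L4 and L5 neurons were picked by mouth pipette from sham rats (4 DRG samples, 215 neurons) and at 1 day (4 samples, 238 neurons), 3 days (3 samples, 237 neurons) and 7 days (5 samples, 240 neurons) after SNC, together called the labelled set here. The series also holds 7 sham libraries marked as new, at 0, 1, 3 or 7 days after surgery (503 neurons), called the added sham set here. The cell names carry no dye color, so crushed and uncrushed neurons are pooled in each labelled sample. Nothing states that 1 DRG sample is 1 rat, so p-values measure the spread between these samples.

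Arginase 1 (Arg1) splits arginine into urea and ornithine. Ornithine decarboxylase (Odc1) turns ornithine into putrescine, which spermidine synthase (Srm) and then spermine synthase (Sms) extend to spermidine and spermine. Both steps use a propylamine donor made by S-adenosylmethionine decarboxylase (Amd1). Spermidine/spermine acetyltransferase (Sat1) starts the way back, and antizyme 1 (Oaz1) binds ornithine decarboxylase and sends it for degradation. In DRG neurons arginase 1 and polyamines are known from work on axon growth after a conditioning injury, and Sprr1a and Atf3 are standard marks of an injured neuron.

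Promoter sequences were taken from RefSeq (build GRCr8), whose table matched 6 of the 7 members; Arg1 had no entry. Shown here are the 250 bases before the annotated start of Oaz1, Srm and Sat1, the members whose window begins at the outer edge of the annotated gene. They stand for the courses seen in the levels: Oaz1 differed between the sham sets, Srm between neurons of high and low Sprr1a, and Sat1 in neither comparison. The Oaz1 window is chr7:9536991-9537240 on the minus strand, the Srm window chr5:164308752-164309001 and the Sat1 window chrX:44007839-44008088, both on the plus strand. Capitals mark matches to TGACG (the core letters of a cAMP response element), CACGTG (an E-box, the letters that Myc proteins read) and TATAA, on either strand.
Oaz1: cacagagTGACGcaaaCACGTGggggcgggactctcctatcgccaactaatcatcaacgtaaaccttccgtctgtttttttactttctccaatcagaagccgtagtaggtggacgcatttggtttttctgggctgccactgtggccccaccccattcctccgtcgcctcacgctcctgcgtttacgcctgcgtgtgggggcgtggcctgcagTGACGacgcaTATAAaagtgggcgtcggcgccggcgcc
Srm: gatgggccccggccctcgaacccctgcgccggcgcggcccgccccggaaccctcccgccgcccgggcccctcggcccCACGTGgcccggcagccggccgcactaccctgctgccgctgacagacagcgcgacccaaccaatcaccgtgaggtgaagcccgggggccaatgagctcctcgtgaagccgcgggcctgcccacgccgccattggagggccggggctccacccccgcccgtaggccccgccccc
Sat1: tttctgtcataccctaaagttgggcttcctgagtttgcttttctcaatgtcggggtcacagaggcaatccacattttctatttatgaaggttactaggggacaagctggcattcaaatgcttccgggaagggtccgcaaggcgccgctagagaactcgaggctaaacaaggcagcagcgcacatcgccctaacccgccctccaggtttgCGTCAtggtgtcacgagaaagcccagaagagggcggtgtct
The E-box letters stood in the windows of Oaz1 and Srm and in 5.59% of the 33469 promoters of the table, and TGACG stood in 18.2% of them. TATAA began 28 bases before the start of Oaz1 and was in 24.0% of all promoters. None of the 6 member windows held TGANTCA, the AP-1 letters, which 6.34% of all promoters hold. A match is a description of these letters and shows no binding.

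The neuronal markers Tubb3 and Uchl1 were found in every cell of both sets, which fits the label. No cell name was shared between libraries and no cell had the values of another. The median depth was 239286 UMIs per labelled neuron and 340145 per neuron of the added sham set, and 4002503 to 28975829 UMIs were summed per labelled sample. Odc1, Sms, Sat1, Amd1 and Oaz1 had a UMI in 94.1% to 99.4% of the neurons of both sets. Srm was sparse, with a UMI in 47.6% of labelled and 49.7% of added sham neurons. Arg1 was the exception among the members, found in 817 of 930 labelled neurons (87.8%, exact 95% interval 85.6% to 89.9%, counting error only) but in 106 of 503 added sham neurons (21.1%, 17.6% to 24.9%), although the added neurons were sequenced more deeply. Levels below are CPM, a sample's count of a gene scaled to its summed UMIs, which describe a share of the RNA. Fewer molecules of a gene in each cell and fewer cells that hold it cannot be told apart in such sums.

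The labelled sham samples carried injury genes at levels like those after SNC. Sprr1a stood at 65.3 to 282 CPM in sham (4 samples), 127 to 243 CPM at 1 day, 124 to 156 CPM at 3 days and 54.9 to 203 CPM at 7 days, and Atf3 at 364 to 950 CPM in sham and 371 to 645 CPM over the SNC samples. Of 8 injury genes listed, 7 were tested and none was called at any time. Sham sample Xin, the shallowest with 24 neurons, held the highest sham value of Sprr1a and Atf3, and results that rest on it are given with and without it.

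The first comparison asks whether the pathway moved after SNC. No member passed the test at any time point, and the levels of most overlapped those in sham. Counts were summed per sample and fitted with the quasi-likelihood test of edgeR, with a call at a Benjamini-Hochberg adjusted p under 0.05. Of 14239 genes tested the share called was 0% at each of 1, 3 and 7 days, so the members did not differ from other genes in this; 1243, 594 and 476 genes had an unadjusted p under 0.05 at the 3 times. DESeq2 called 17, 1 and 0 genes, none of them a member. Samples 17-1 and 17-2 share a time point and a date of reverse transcription, as do 19-1 and 19-2. With each of these pairs merged, edgeR called no gene at any time. At 1 day 746 of 14960 genes then had an unadjusted p under 0.05.

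**Figure D1:**
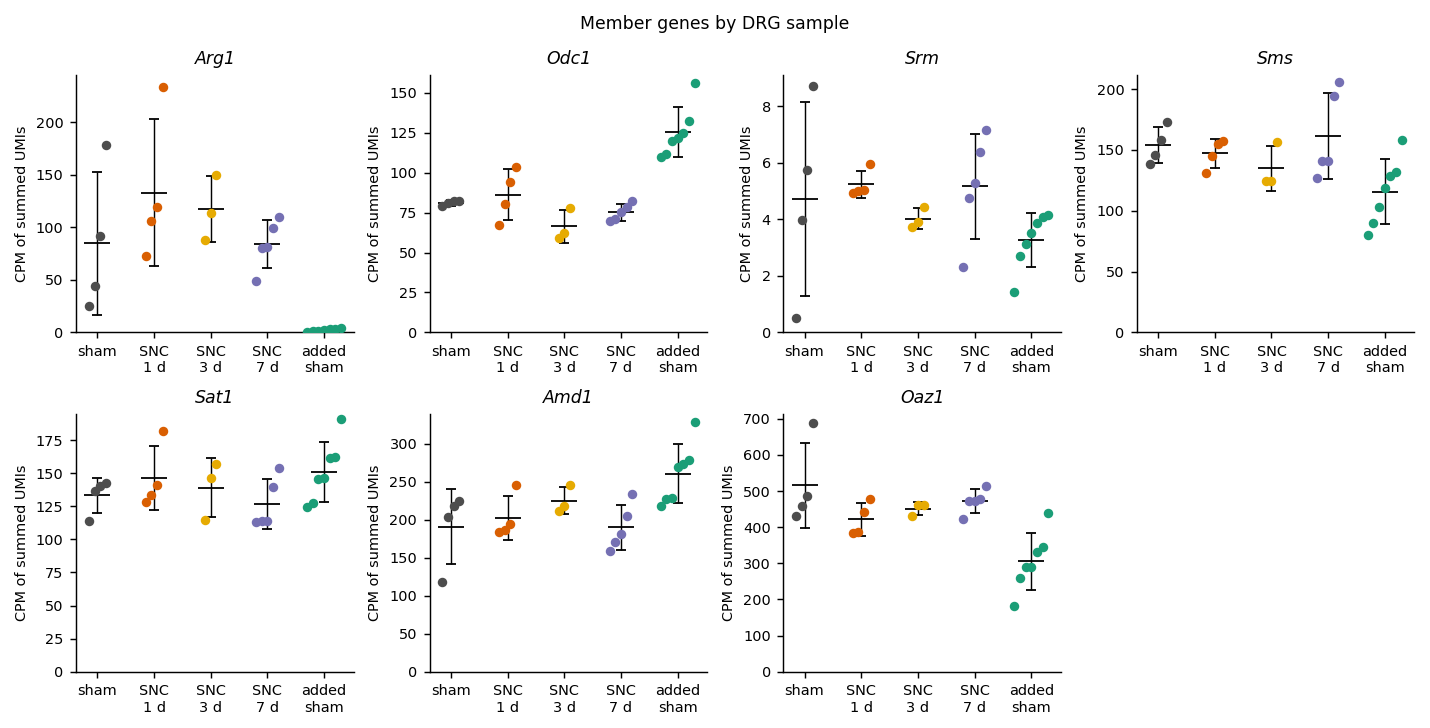
Level of the 7 member genes (vertical axis, CPM of summed UMIs, linear from 0) in each DRG sample by group; points are samples, black bars the mean and SD. Arg1 lies near 0 in all 7 added sham libraries and between 25.1 and 234 CPM in the 16 labelled samples, while Odc1 is above every labelled sham sample in all 7.

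Arg1 stood at 25.1, 44.2, 91.6 and 178 CPM in the 4 sham samples. It was at 73.1, 106, 119 and 234 CPM at 1 day, at 87.9, 113 and 150 CPM at 3 days, and at 49.3, 79.8, 81.3, 99.0 and 110 CPM at 7 days. The sham samples alone spanned almost the whole range, so each SNC group overlapped them. The log2 fold change against sham was 0.55 ± 0.48 (SE) at 1 day, 0.42 ± 0.51 at 3 days and -0.10 ± 0.46 at 7 days, with edgeR adjusted p of 0.77, 0.98 and 1.00. Exact two-sided permutation tests on log2(CPM + 1) gave p = 0.257, 0.400 and 0.635. The smallest p that the group sizes allow in this test is 0.0286 at 1 day and 0.0571 at 3 days. At 3 days it therefore cannot fall under 0.05.

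The highest sham value of Arg1 also came from sample Xin. Without it the log2 fold change was 1.28 at 1 day, 1.15 at 3 days and 0.63 at 7 days, and none was called. Reverse transcription was done in an earlier year for 3 sham and 3 of the 7-day samples and in the next year for the rest, so that 1 day and 3 days can be set beside only 1 sham sample of their own year. In the later year that sham sample had 44.2 CPM of Arg1, below the 73.1 to 234 CPM at 1 day, the 87.9 to 150 CPM at 3 days and the 49.3 and 79.8 CPM at 7 days. In the earlier year the sham samples spanned 25.1 to 178 CPM and the 7-day samples 81.3 to 110 CPM. With the year as a term the log2 fold change was 1.23 ± 0.60 at 1 day and 1.10 ± 0.62 at 3 days (edgeR adjusted p = 0.70 and 0.53), and at 7 days 0.07 ± 0.45 (1.00). On the 2 dates of reverse transcription that a sham and a 7-day sample share, Arg1 stood at 25.1 CPM in sham sample 4 and 99.0 CPM in 7-day sample 8, and at 91.6 CPM in sham sample 10 and 110 CPM in 7-day sample 9, so that the 7-day sample was higher on both. With the date as a block the log2 fold change at 7 days turned to 1.11 ± 0.63, and it was 2.30 ± 0.87 at 1 day and 2.38 ± 0.95 at 3 days (edgeR adjusted p = 1.00, 0.32 and 0.43). No 1-day or 3-day sample shares a date with a sham sample, so those values rest on links through the 7-day samples.

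Odc1, the entry step of polyamine synthesis, was tight in sham at 78.9, 80.8, 82.0 and 82.4 CPM. At 3 days it stood at 59.1, 62.2 and 78.1 CPM, all below the 4 sham samples. The difference was -0.32 ± 0.13 on the log2 scale with an edgeR adjusted p of 0.97 (unadjusted 0.0302). The exact two-sided permutation p was 0.0571, the smallest these group sizes allow. Odc1 was the only member whose samples did not overlap with sham at any time point, where 5.75% of 12830 genes with at least 1 CPM on average did not overlap at 3 days, 3.05% higher and 2.7% lower. The share was 3.44% at 1 day (2.42% higher, 1.02% lower) and 1.06% at 7 days (0.717% higher, 0.343% lower). At 1 day Odc1 spanned 67.0 to 103 CPM and at 7 days 69.6 to 82.3 CPM, on both sides of sham.

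Oaz1 had an unadjusted p of 0.0305 at 1 day (log2 fold change -0.37 ± 0.15, edgeR adjusted p = 0.55), with 383 to 477 CPM beside 430 to 688 CPM in sham. Without sample Xin, which holds the 688 CPM, that difference shrank to -0.14. For Srm, Sms, Sat1 and Amd1 the log2 fold changes lay between -0.27 and 0.22 over the 3 times. The standard errors were 0.14 to 0.18 for Sms, Sat1 and Amd1 and 0.45 to 0.51 for Srm, whose sham samples ran from 0.50 to 8.71 CPM.

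Both 7-day samples 19-1 and 19-2 held 24 neurons, of which 20 and 4 were labelled as directly injured. Over all neurons Arg1 stood at 49.3 CPM in 19-1 and at 79.8 CPM in 19-2. Sms stood at 206 and 127 CPM in the same order, Sat1 at 154 and 113 CPM, and Oaz1 at 473 and 514 CPM. Injury genes were lower in 19-1, the sample labelled as mostly directly injured. Sprr1a stood at 54.9 CPM in 19-1 and 131 CPM in 19-2, Atf3 at 371 and 499 CPM, Gap43 at 1091 and 1551 CPM and Ecel1 at 75.7 and 125 CPM, and 5 of 24 against 14 of 24 neurons had at least 100 CPM of Sprr1a. The study names opposite dyes for crushed neurons in its Results and its Methods, so which of the samples held more crushed neurons is uncertain. With 1 sample each the difference has no replicate check.

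In PEP1-like neurons, a peptidergic nociceptor class, the same question gave the same counts for the members. The class was named with 7 of 13 listed markers high, Gal, Cck and Kit among them, and the rest of the list was not. No member was called at any time, where 0.00941% of 10622 genes were called at 1 day, 0.00941% at 3 days and 0% at 7 days. Arg1 stood at 81.4, 108, 124 and 630 CPM in PEP1-like neurons of sham, at 217 to 491 CPM at 1 day, at 215 to 471 CPM at 3 days and at 111 to 259 CPM at 7 days. Of the 4 sham samples 3 lay below every 1-day and 3-day sample, and sample Xin, with 4 such neurons, lay above them all. The log2 fold change was 0.47 ± 0.49 at 1 day and 0.52 ± 0.52 at 3 days (edgeR adjusted p = 0.77 and 0.89), and without Xin 1.57 and 1.61 (0.31 and 0.27). At 7 days it was -0.32 ± 0.47, and 0.78 without Xin. In 7-day samples 19-1 and 19-2, with 5 PEP1-like neurons each, Arg1 stood at 169 and 111 CPM, the reverse of their order over all neurons.

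The second comparison set the added sham libraries beside the labelled sham samples. Both carry the label sham, but the study describes the added neurons apart from the fluorescently labelled ones, as cells sequenced to annotate subtypes. Labelled sham rats also had dye injected into the nerve, which the study does not describe for the added neurons. These differences in source and treatment cannot be told apart from a difference between the libraries. Arg1 was almost absent from the added set. It stood at 0.67, 1.12, 1.66, 2.14, 3.02, 3.42 and 3.79 CPM in the 7 added libraries, from 18 to 123 UMIs in each, and at 25.1 to 178 CPM in the 4 labelled sham samples. The sets did not overlap, as for 30.6% of 13380 genes (22.1% higher, 8.57% lower), and the mean was 2.26 ± 1.19 CPM (SD, n = 7) against 84.8 ± 68.2 (n = 4). The log2 fold change, added minus labelled, was -5.38 ± 0.56 (edgeR adjusted p = 6.3e-05), a 41.6-fold lower level, and the exact two-sided permutation p was 0.00606.

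Oaz1 was also lower in the added set, at 182 to 438 CPM with a median of 290 against 430 to 688 CPM (log2 fold change -0.90 ± 0.20, edgeR adjusted p = 0.0031). Only the highest added library reached into the labelled range. Sms was lower too, at 79.7 to 158 CPM with a median of 119 against 138 to 173 CPM (-0.54 ± 0.16, adjusted p = 0.020). Odc1 moved the other way. All 7 added libraries had 110 to 157 CPM (median 122), above the 78.9 to 82.4 CPM of labelled sham, with a log2 fold change of 0.50 ± 0.11 and an edgeR adjusted p of 0.0032. Thus 4 of the 7 members were called, 3 lower and 1 higher, where 40.6% of 15791 genes were called, so the count is close to that of genes at large. The median over the members was -0.54 and over all genes 0.15.

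Amd1, Sat1 and Srm were not called between the sham sets. Amd1 spanned 217 to 329 CPM in the added set and 118 to 224 CPM in labelled sham (0.34 ± 0.17, edgeR adjusted p = 0.14). Sat1 was close in both, at 125 to 191 and 114 to 142 CPM (0.05 ± 0.13, 0.77). Srm was at 1.43 to 4.17 against 0.50 to 8.71 CPM (-0.66 ± 0.49, 0.30), and was called once sample Xin, with 2 UMIs of Srm, was left out (-1.04, 0.038). The calls of Arg1, Oaz1, Odc1 and Sms were kept without any 1 sample.

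Injury genes differed between the same sets. Of the 8 listed, 7 were tested and all 7 were called lower in the added set, where 16.5% of 15791 genes were called lower. Gal stood at 1.71 to 22.2 against 606 to 2323 CPM and Atf3 at 76.2 to 198 against 364 to 950 CPM. Sprr1a had 6 UMIs in 1 of the 503 added neurons (0.199%, exact 95% interval 0.00503% to 1.10%) and a UMI in 788 of 930 labelled ones (84.7%). Arginase 1 is also made by macrophages, so macrophage markers were summed. All 11 had a UMI in each set, and their sum was 13.7 to 34.99 CPM in the added set and 15.9 to 24.6 CPM in labelled sham. Single macrophage markers went both ways between the whole labelled and added sets. Aif1 stood at 9.15 CPM in labelled and 4.87 CPM in added neurons, and Mrc1 at 4.46 and 7.13 CPM. Satellite glia markers summed to 120 to 700 CPM in the added set and 214 to 1162 CPM in labelled sham; Kcnj10 was at 0 in the added set. Schwann markers summed to 691 to 805 CPM in the added set and 861 to 1273 CPM in labelled sham, and endothelial markers to 16.3 to 28.4 against 10.4 to 15.2 CPM, so that neither sum overlapped between the sets. The fibroblast sum was 3.73 to 36.7 CPM (median 29.4) in the added set and 1.45 to 12.6 CPM (median 7.37) in labelled sham. Their part in the result was not tested.

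The gap in Arg1 was seen in the 3 named neuron classes that both sets hold. Added clusters of 136, 91 and 58 neurons had no name, and no added cluster was named as peptidergic. The peptidergic classes, among them PEP1-like with the highest labelled mean of Arg1, were therefore not compared. The 2 sets were clustered separately, and classes were named from marker genes. The labelled NF-like class pools the clusters led by Shox2 and by S100a16, while the added one is a single cluster led by Shox2. The labelled SST-like class pools the clusters led by Prg4 and by Sst, while the added one is a single cluster led by Ifitm1 and Nppb. The mixes of neurons compared may thus differ. In NF-like neurons, large myelinated mechanoreceptors, Arg1 stood at 2.39, 36.5 and 133 CPM in 3 labelled sham samples and at 0.149 to 1.42 CPM in 5 added libraries. In NP-like (nonpeptidergic) neurons it stood at 10.5, 22.1 and 22.6 CPM against 0.338 to 4.02 CPM in 7 libraries. In SST-like neurons, itch neurons that make somatostatin, it stood at 18.3, 50.2 and 51.2 CPM against 0 to 2.02 CPM in 6 libraries. The values did not overlap in any of the 3 classes, each with 3 labelled sham samples. Over all neurons 30.6% of 13380 genes did not overlap between the sham sets. That share was not computed within classes. The highest cluster mean in the added set was 4.85 ± 4.21 CPM (SD over 7 samples), in an unnamed cluster led by Cav1, Sqor and Ntsr1. In 17 cLTMR-like neurons Arg1 had 0 UMIs, which allows up to 0.693 CPM (3 counts, counting error only).

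**Figure D2:**
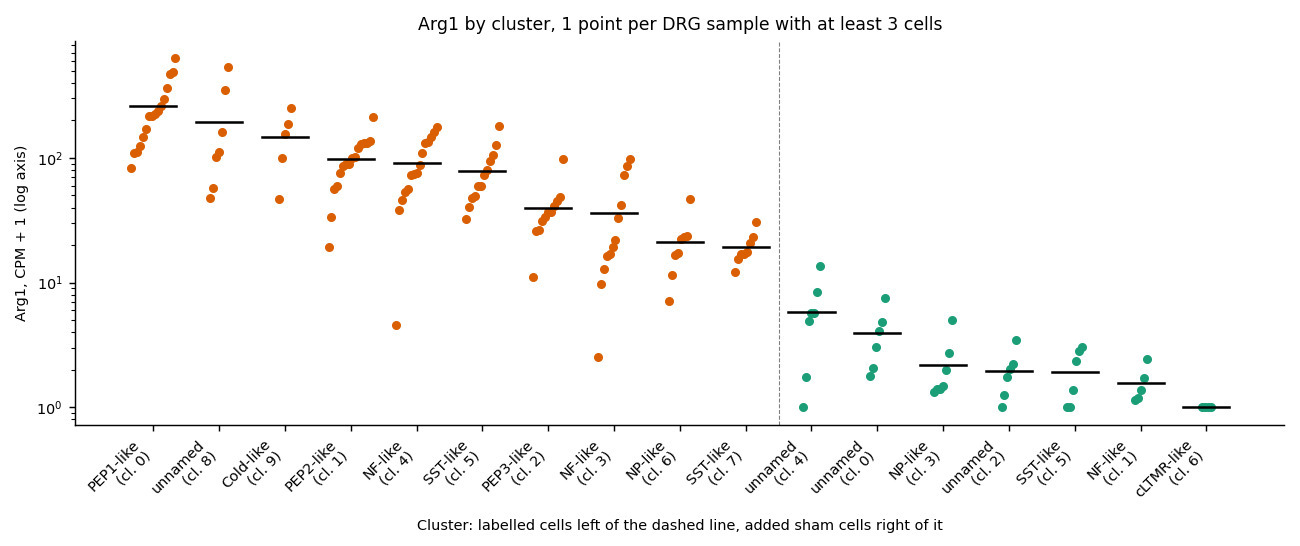
Arg1 (vertical axis, CPM + 1 on a log scale) by cluster, 1 point for each DRG sample with at least 3 cells of the cluster, black line the mean. Labelled clusters (orange) run from a mean of 259 CPM in PEP1-like to 18.2 CPM in an SST-like cluster, and all added sham clusters (green) have means under 4.86 CPM.

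Within the labelled set Arg1 varied more between neuron classes than any other member. The following levels are a description, since Arg1 was among the variable genes used to cluster and among the 10 leading genes of the PEP1-like cluster. Its mean over samples was 259 ± 157 CPM (SD, n = 16) in PEP1-like neurons. It was 194 ± 180 CPM (n = 7) in an unnamed cluster of 42 cells with high satellite glia and Schwann markers, and 147 ± 79.2 (n = 5) in Cold-like neurons, the menthol receptor class marked by Trpm8. PEP2-like neurons had 97.4 ± 47.0 CPM (n = 16), the NF-like cluster led by S100a16 and Kcnv1 90.2 ± 49.9 (n = 15) and the SST-like cluster led by Prg4 and Ifitm1 78.1 ± 42.5 (n = 12). The lowest clusters were PEP3-like with 38.6 ± 22.0 CPM (n = 11), the NF-like cluster led by Shox2 and Pvalb with 34.9 ± 32.0 (n = 12), NP-like with 20.1 ± 12.0 (n = 8) and the SST-like cluster led by Sst and Nppb with 18.2 ± 5.64 (n = 8). Neighbors in this order differed by less than the larger of their SDs. When the members and Sprr1a were kept out of the variable genes, each cluster mean of Arg1 moved by less than its SD.

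**Figure D3:**
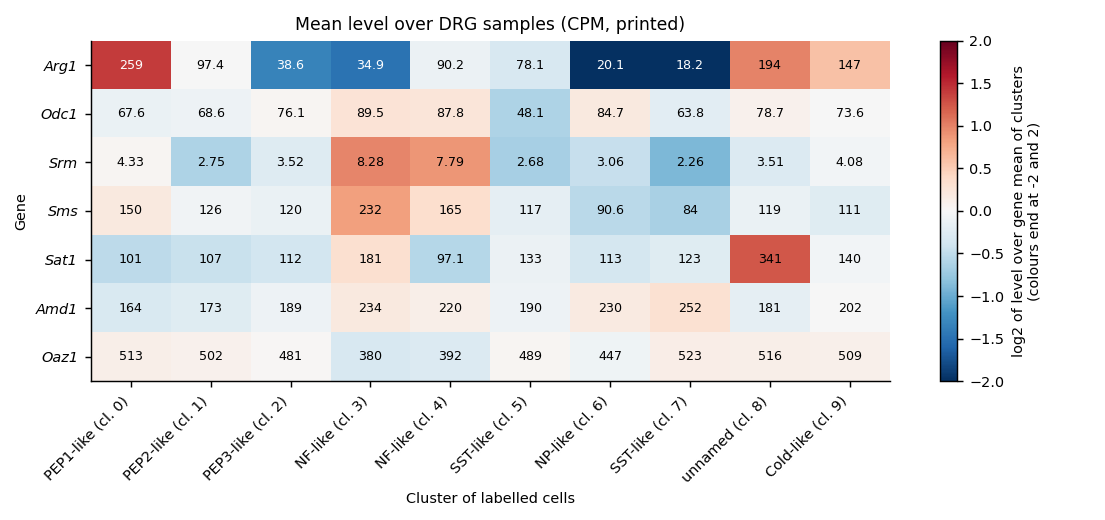
Mean level of each member over DRG samples (printed, CPM) in the 10 labelled clusters; color is the log2 ratio to the gene's own mean over clusters. Arg1 runs from 18.2 to 259 CPM, Sat1 peaks at 341 CPM in the unnamed cluster, Srm and Sms peak in the NF-like clusters, and Oaz1 stays between 380 and 523 CPM.

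The synthases Srm and Sms were highest in NF-like neurons. Sms stood at 232 ± 39.2 CPM (n = 12) in the NF-like cluster led by Shox2 and at 84.0 ± 17.3 CPM (n = 8) in the SST-like cluster led by Sst, its lowest. Srm was at 8.28 ± 2.64 and 7.79 ± 3.38 CPM in the NF-like clusters and at 2.26 to 4.33 CPM on average elsewhere. In the added set the NF-like cluster again had the highest mean of both, 192 ± 29.4 CPM of Sms and 4.54 ± 1.29 CPM of Srm (n = 5).

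Sat1, which breaks polyamines down, was at 341 ± 63.1 CPM (n = 7) in the unnamed cluster with glial markers, and its lowest sample there, 230 CPM, was above the mean of each other cluster. Elsewhere Sat1 lay between 97.1 and 181 CPM. Odc1 ranged from 48.1 CPM in an SST-like to 89.5 CPM in an NF-like cluster, and Amd1 from 164 CPM in PEP1-like to 252 CPM in SST-like neurons. Oaz1 was the most even, from 380 to 523 CPM, with its 2 lowest means in the NF-like clusters where Srm and Sms were highest.

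The third comparison asks which members go with Sprr1a, a cornifin-like protein made by injured sensory neurons. Within each of the 16 labelled samples neurons were split at 100 CPM of Sprr1a into 413 high and 517 low cells, of which 227 lay between 50 and 200 CPM, and sums were compared with the sample as a block. Arg1 was higher in Sprr1a-high cells in 16 of 16 samples, at 80.4 to 372 CPM (median 132) against 14.2 to 172 CPM (median 47.6). The ratio within a sample ran from 1.05 in sham sample Xin to 10.1 in 3-day sample 17-3. The log2 fold change was 1.72 ± 0.21 with an edgeR adjusted p of 2.0e-06, a 3.30-fold higher level.

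Srm, Sms and Amd1 were also called with smaller differences. Srm was higher in 13 of 16 samples (0.48 ± 0.16, edgeR adjusted p = 0.026), with medians of 5.34 and 4.14 CPM. Sms was higher by 0.17 ± 0.06 (0.022), with medians of 150 and 146 CPM and a higher value in 9 of 16 samples. Amd1 was lower, by -0.17 ± 0.05 (0.0087), with medians of 184 and 218 CPM, and only sample Xin went the other way. Sat1 (0.16 ± 0.07, 0.090), Oaz1 (0.08 ± 0.05, 0.23) and Odc1 (-0.03 ± 0.05, 0.67) were not called. With 32.5% of 11898 genes called, the 4 of 7 members are not set apart as a group; the median was 0.16 over the members and -0.00 over all genes.

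**Figure D4:**
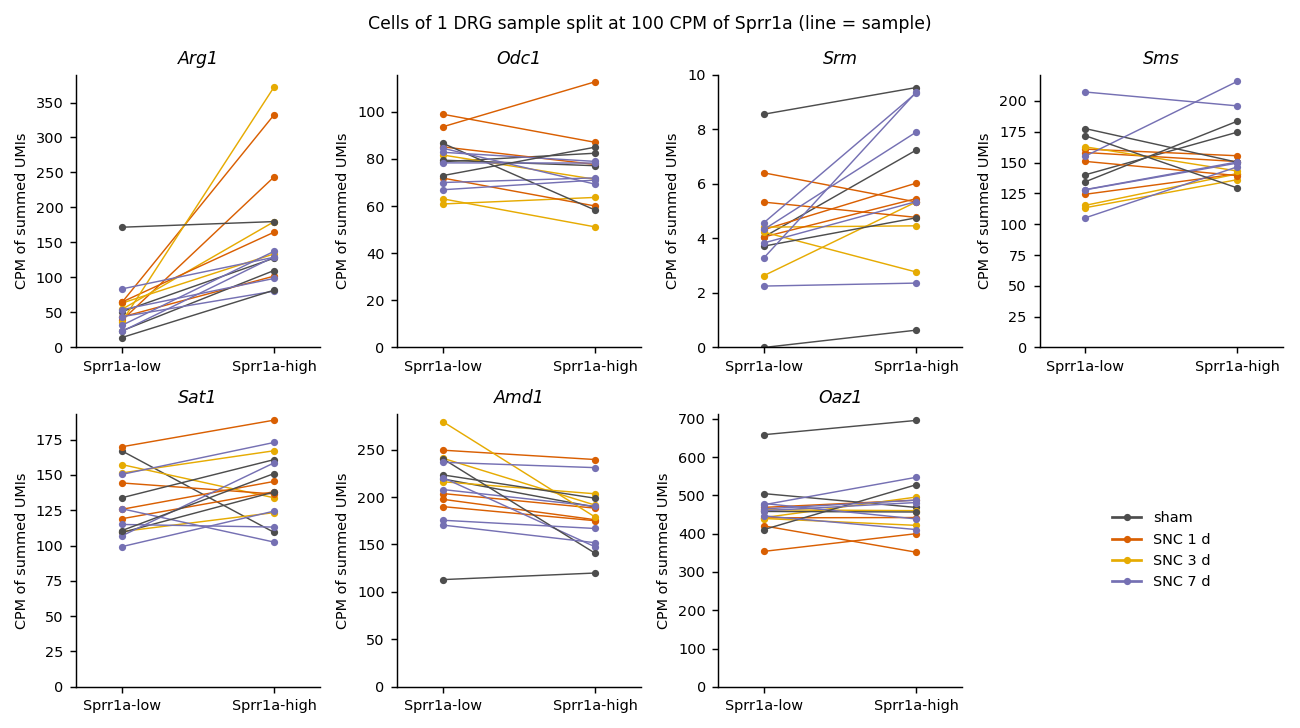
Level of each member (vertical axis, CPM of summed UMIs) in Sprr1a-low and Sprr1a-high neurons of the same DRG sample, joined by a line and colored by group. Arg1 rises in all 16 lines, Amd1 falls in 15 of 16, and Odc1 has lines in both directions.

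Sprr1a-high cells are not spread evenly over the neuron classes, so sums were also blocked by sample and cluster together. Arg1 was still higher, by 1.06 ± 0.20 (edgeR adjusted p = 0.00031), while Sms (0.17 ± 0.07, 0.18) and Amd1 (-0.12 ± 0.06, 0.24) were no longer called and Srm was not tested. Fewer genes were called at large, 630 of 9093 against 3866 of 11898 with the sample alone as the block. In pooled counts Arg1 was higher in the Sprr1a-high cells of each of the 10 clusters. It stood at 285 against 170 CPM in PEP1-like, 109 against 56.0 in PEP2-like and 146 against 37.8 in the NF-like cluster led by S100a16. Only 1 cell was Sprr1a-high in the SST-like cluster led by Sst, 3 in the NP-like and 5 in the PEP3-like cluster. The share of all genes higher in each cluster was not computed. The Cold-like cluster was close to even, at 187 against 170 CPM. The macrophage sum was 6.17 to 81.1 CPM (median 25.1) in high and 8.11 to 100 CPM (median 18.3) in low cells, and the median depth was 230464 and 254601 UMIs. The Schwann sum had a median of 978 CPM in high and 863 CPM in low cells, the satellite glia sum 269.6 and 262.4 CPM, the endothelial sum 10.0 and 16.0 CPM and the fibroblast sum 4.70 and 3.47 CPM. Their part was not tested.

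Several calls rested on few samples and on the place of the split. Srm lost its call without 3-day sample 15, 7-day samples 8 or 19-1 or sham sample 10 (adjusted p 0.051 to 0.057), and stood at -0.05 with the split at 300 CPM. Sms lost its call without sham sample 18 (adjusted p = 0.050003) and with the split at 300 CPM (0.38). Sat1 gained a call without sham sample 10 (0.21, edgeR adjusted p = 0.011), and Oaz1 gained one with the split at 300 CPM (0.31, 3.6e-05).

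Over bands of Sprr1a the pooled level of Arg1 was 27.8 CPM in 142 cells with none, 24.5 CPM in 140 cells up to 10 CPM, 59.4 CPM in 90 cells from 10 to 30, 82.5 CPM in 145 cells from 30 to 100, 102.2 CPM in 224 cells from 100 to 300 and 250 CPM in 189 cells at 300 CPM or more. The share of PEP1-like cells also went up, from 4.23% in the first band to 38.1% in the last. Cells without a Sprr1a UMI still had Arg1 in 61.3%.

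Cell by cell, Pearson's r of log2(CPM + 1) between Arg1 and Sprr1a was 0.53 over 930 labelled neurons (Spearman 0.57). The median within samples was 0.50, with 16 samples from 0.19 to 0.73. For the other members the pooled r with Sprr1a lay between -0.01 and 0.18. These are descriptions, since cells share libraries and depth. In the added set Sat1 had an r of 0.44 with Atf3 over 503 neurons, from 0.39 to 0.55 within the 7 libraries, against 0.09 in the labelled set. With Arg1, the other members had r between 0.06 and 0.21 in labelled neurons.

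Among 8184 genes with at least 10 CPM on average, the genes most like Arg1 over the 930 labelled neurons were Cmtm3 (r = 0.56), Sprr1a (0.53) and Timp1 (0.53), the last an inhibitor of matrix proteases. Those most like Odc1 were Ppa2, Hmox2 and Tufm (0.46 to 0.47), and those most like Sms were Taf13, Gyg1 and Tufm (0.50 in each). Srm had Gas6, Fgf9 and Ppif (0.32 to 0.34) and Sat1 had Phpt1, Pcna and Ciao2b (0.37 to 0.43). Amd1 had Chd6, Ap2b1 and Dpcd (0.57) and Oaz1 had Tomm6, Map2k2 and Mrpl55 (0.57 to 0.59). No other member was among the 3 genes most like any of them, where Srm, with a mean of 4.86 CPM, was too low to be a candidate.

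Other genes of the 2 pathways were taken from lists of 18 arginine and 18 polyamine genes. None was called at 1, 3 or 7 days after SNC, among 15 arginine and 17 polyamine genes tested. Between the sham sets 7 of 16 arginine genes were called, 3 higher and 4 lower in the added set, where 40.6% of all genes were called (24.2% higher, 16.5% lower). Nos1, the neuronal nitric oxide synthase, was at 0.120 to 0.589 against 2.00 to 5.82 CPM (log2 fold change -3.58 ± 0.48, edgeR adjusted p = 0.00015), and Asl, Ddah1 and Ddah2 were lower as well. Higher were the arginine transporter Slc7a1 (1.43 ± 0.14), the arginine-building Ass1 (1.405 ± 0.25) and the mitochondrial ornithine carrier Slc25a15 (1.33 ± 0.31). Arg2, the mitochondrial arginase, was not called (-0.22 ± 0.16, edgeR adjusted p = 0.29), at 79.9 to 138 against 90.9 to 130 CPM.

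Of 18 polyamine genes tested between the sham sets 11 were called, 5 higher and 6 lower, beside the same 40.6% of all genes. The hypusine pathway, which uses spermidine to modify the factor eIF5A, had members on both sides. Eif5a was lower at 351 to 540 against 690 to 917 CPM (-0.86 ± 0.14, edgeR adjusted p = 0.00048), as were its enzymes Dhps and Dohh, and Eif5a2 was higher at 247 to 357 against 54.2 to 128 CPM (1.41 ± 0.20, 0.00022). Antizyme 2 (Oaz2) was lower by -1.10 ± 0.29, like Oaz1, and the lysosomal polyamine exporter Atp13a2 was higher by 0.97 ± 0.12. The median was -0.21 over the arginine and 0.02 over the polyamine genes, beside 0.15 over all genes.

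In Sprr1a-high neurons 7 of 13 arginine genes were called, 5 higher and 2 lower, and 3 of 16 polyamine genes, 2 higher and 1 lower, where 32.5% of all genes were called (16.6% higher, 15.9% lower). Nos1 was higher by 2.17 ± 0.27 (edgeR adjusted p = 4.1e-06), a 4.49-fold difference, and Ass1 lower by -0.89 ± 0.13 (1.6e-05). Asl, Azin2, Ddah1 and Oat were higher by 0.15 to 0.41, and Gatm was lower. Among the polyamine genes Slc3a2 (0.35 ± 0.07) and Eif5a (0.18 ± 0.06) were higher and Mtap, which recycles the by-product of polyamine synthesis, was lower (-0.42 ± 0.12). The medians were 0.05 and 0.06, beside -0.00 over all genes.

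**Figure D5:**
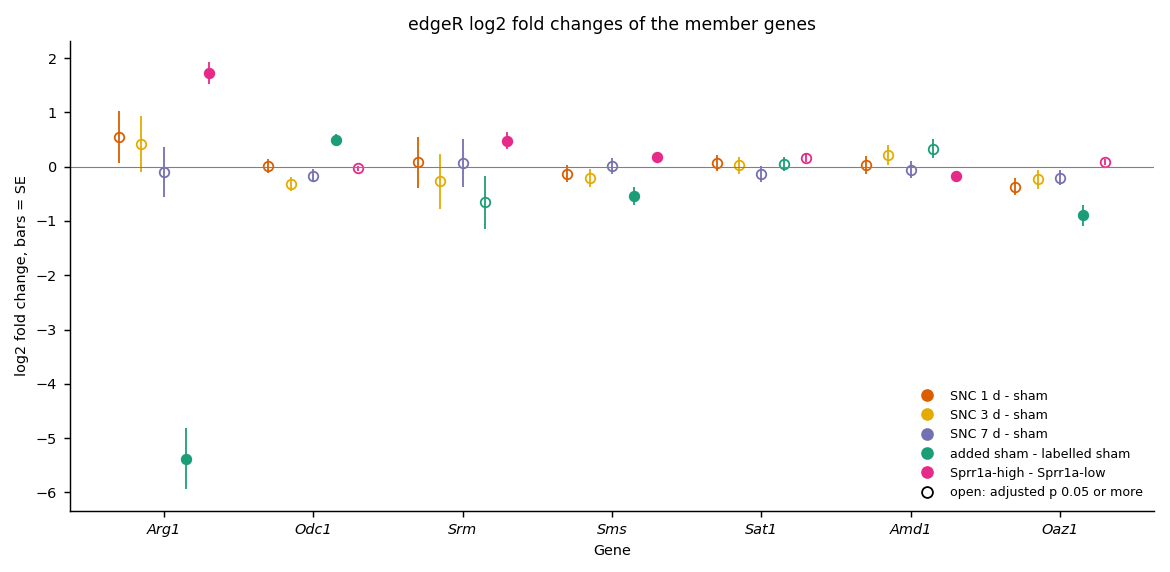
Log2 fold changes of the members from edgeR (vertical axis, bars the SE) in 5 comparisons; filled points were called at an adjusted p under 0.05. Arg1 is filled at -5.38 for added against labelled sham and at 1.72 for Sprr1a-high against Sprr1a-low neurons, and none of the members is filled for SNC against sham at 1, 3 or 7 days.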

How the data were processed

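Single neurons were sequenced from the 3′ end with UMIs in a modified Smart-seq2 protocol. The deposited files hold UMI counts per gene and cell, which the authors made with STAR, featureCounts and UMI-tools on the rat genome Rnor 6.0, per the labels and their processing notes. Cells were kept with at least 500 genes, 1000 UMIs and under 5% mitochondrial counts. Each set was clustered with Seurat 5.3.0 (2000 variable genes, 40 components, resolution 0.5), and a cluster was named when at least 40% of a class's markers were high, a limit set after seeing the data. No doublet caller was run on these hand-picked cells. Counts were summed per DRG sample and fitted with edgeR 4.0.16 (quasi-likelihood, TMM, low-count filter), with Benjamini-Hochberg adjustment. DESeq2 1.42.0 was an alternative. Scripts were tested on simulated data. Named genes are the 7 members, called genes of the pathway lists, injury genes, the 3 genes most correlated with each member, and genes that name clusters or mark cell types; Arg2 was added after its values were seen. The members and lists were chosen with earlier results of these data known. Total UMIs were 4002503 to 40732975 per sample.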

Additional observations from a re-analysis of the deposited data

Results flagged for a closer look

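Of 49 groups of 4 to 7 samples, 4 held a sample far from the others by Dixon's criterion, where chance gives about 1 in 20 groups. Sham sample Xin stood at 630 CPM of Arg1 in PEP1-like neurons, the nearest sample at 124 CPM, and at 680 CPM of Oaz1, the nearest at 508 CPM. The 1-day sample 16 stood at 245 CPM of Amd1 over all neurons, the nearest at 194 CPM, and at 5.96 CPM of Srm, the nearest at 5.05 CPM.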

How the results depend on the processing

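No member was called after SNC under any alternative run. The count of genes called over all neurons, 0 at each time, became 17 with DESeq2, 1 with a term for the year of reverse transcription and 1 with a block for its date at 1 day. At 3 days it became 1 with DESeq2, 1 without the low-count filter, 1 with the year, 3 with the date and 1 with cells thinned to 20000 UMIs, and 0 to 1 without 1 sample. In PEP1-like neurons DESeq2 called 17, 2 and 2 genes and the fit without the filter 184, 71 and 62 at 1, 3 and 7 days, and leaving out 1 sample gave 0 to 1, 1 to 3 and 0 to 1. For Sprr1a-high neurons 3866 genes became 2500 without the sample block, 1762 after thinning and 630 with sample and cluster as the block. The cause was not tested.

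Some member differences changed sign, none of them called under the changed setting. With the year, Amd1 at 1 day became -0.046, Sat1 -0.0093 at 1 day and -0.041 at 3 days, Srm 0.15 at 3 days and Arg1 0.072 at 7 days. With the date, Amd1 at 1 day became -0.17, Sat1 -0.14 at 3 and 0.022 at 7 days, Srm -0.061 and Arg1 1.11 at 7 days. With thinning, Odc1 became -0.067 at 1 day and Arg1 0.33 at 7 days. With at least 5 PEP1-like cells a sample, Amd1 became -0.041 at 3 days, and Arg1 0.78 and Oaz1 0.12 at 7 days. Sat1 between the sham sets became -0.0125 with DESeq2 and -0.0138 with its size factors, and with the Sprr1a split at 300 CPM Sat1 became -0.019 and Srm, called at 100 CPM, -0.051.

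Without 1 sample the values over all neurons ran, at 1 day, from -0.12 to 0.11 for Amd1, -0.063 to 0.084 for Odc1, -0.043 to 0.14 for Sat1 and -0.24 to 0.51 for Srm. At 3 days they ran from -0.053 to 0.11 for Sat1 and -0.59 to 0.16 for Srm. At 7 days they ran from -0.20 to 0.019 for Amd1, -0.41 to 0.63 for Arg1, -0.29 to 0.027 for Oaz1, -0.083 to 0.089 for Sms and -0.25 to 0.50 for Srm. In PEP1-like neurons they ran from -0.24 to 0.039 for Amd1, -0.094 to 0.24 for Odc1 and -0.67 to 0.60 for Srm at 1 day. At 3 days they ran from -0.041 to 0.17 for Amd1, -0.058 to 0.67 for Sat1 and -0.83 to 0.44 for Srm. At 7 days they ran from -0.63 to 0.78 for Arg1, -0.12 to 0.12 for Oaz1, -0.36 to 0.37 for Sat1 and -1.01 to 0.45 for Srm. Sat1 between the sham sets ran from -0.081 to 0.090.

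Replicate numbers were given in accession order and pair no samples, so the shared date of reverse transcription was the block used for SNC. The Sprr1a split was not run in the added set, where 1 neuron had a Sprr1a UMI. Over the alternatives, 338 cluster levels moved by no more than 1 SD and 19 by more. Srm, at 703 UMIs over the added set, was limited by depth.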
